A study of Mus musculus with 10 samples.

Results

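A set of 10 genes of MHC class II antigen presentation was followed in splenic B cells of wild-type and Bcl6 transgenic mice. The genes were H2-Aa, H2-Ab1, H2-Eb1, H2-Oa, H2-Ob, H2-DMa, H2-DMb2, Cd74, Ciita and Ctss. They were chosen by symbol, not by their values. Of the 10, 9 had a probe set with 1 symbol and were among the 19937 genes fitted. H2-DMb2 shared its only probe set with the near-identical H2-DMb1, so that those 2 genes cannot be told apart here. All arrays were Affymetrix Mouse Gene 1.0 ST arrays of B220+CD22+ cells sorted from spleens of mice with the strain label CBAxC57BL/6J. Of these, 3 arrays have the genotype label wild-type. The 3 Sca1-Bcl6(floxed) arrays, called floxed, came from mice that carry mouse Bcl6, followed by an IRES and eGFP, in the pLy6 vector with a loxP site on either side. The 4 Sca1-Bcl6(delta) arrays, called delta, came from such mice crossed with mb1-Cre, a Cre expressed from the B cell gene Cd79a (mb-1). Whether Cre had removed the Bcl6 between the loxP sites from the sorted delta cells was not tested. The sources used here give no age, and do not say which of the transgenic lines an array came from or whether arrays came from separate animals, so that p-values measure the spread between these samples.

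MHC class II molecules show peptides from endosomes to CD4+ T cells, and in B cells they present the antigen taken up by the B cell receptor. H2-Aa and H2-Ab1 encode the chains of I-A, and H2-Ea and H2-Eb1 those of I-E. Cd74, the invariant chain, blocks the peptide groove until proteases, cathepsin S (Ctss) among them, trim it to a short remnant that H2-DM removes, while H2-O holds H2-DM back. The coactivator Ciita does not bind DNA itself and is recruited to class II promoters by factors bound to the X and Y boxes.

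Promoter sequences were looked up for the members, because these boxes are the shared control element of the class II genes. RefSeq promoters (build GRCm38.p6, 250 bases before to 50 after the start site) were matched by symbol for 7 of the 10 members, and none was found for H2-Ab1, Cd74 and Ciita. Printed below are the promoters of H2-Oa, H2-Eb1, H2-Eb2 and H2-Ob, which share the order over arrays described with H2-Ea further on, and that of H2-Aa, which does not have it. Capitals mark matches on either strand to GATTGG (Y box) and to AGNAACNG (X box core, in which N is any base), and the sequences run 5′ to 3′.
H2-Oa, chr17:34092129-34092428, plus strand: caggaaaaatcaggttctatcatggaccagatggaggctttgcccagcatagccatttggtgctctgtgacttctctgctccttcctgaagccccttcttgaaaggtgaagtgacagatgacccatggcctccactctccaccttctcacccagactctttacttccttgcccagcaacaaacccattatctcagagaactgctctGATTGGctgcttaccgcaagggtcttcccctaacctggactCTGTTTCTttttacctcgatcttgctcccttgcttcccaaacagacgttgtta
H2-Eb1, chr17:34305617-34305916, plus strand: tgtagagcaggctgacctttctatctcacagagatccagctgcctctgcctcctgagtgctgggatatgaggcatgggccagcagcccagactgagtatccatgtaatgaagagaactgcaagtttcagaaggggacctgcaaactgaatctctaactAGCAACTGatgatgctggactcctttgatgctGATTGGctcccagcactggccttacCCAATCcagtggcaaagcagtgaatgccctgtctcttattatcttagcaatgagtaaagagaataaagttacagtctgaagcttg
H2-Eb2, chr17:34325425-34325724, plus strand: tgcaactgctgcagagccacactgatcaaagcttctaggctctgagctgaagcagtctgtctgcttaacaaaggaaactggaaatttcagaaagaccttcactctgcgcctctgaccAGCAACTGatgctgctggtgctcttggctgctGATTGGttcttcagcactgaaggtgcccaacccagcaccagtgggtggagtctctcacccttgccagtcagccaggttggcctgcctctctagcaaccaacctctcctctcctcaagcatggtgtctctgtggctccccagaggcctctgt
H2-Ob, chr17:34238655-34238954, plus strand: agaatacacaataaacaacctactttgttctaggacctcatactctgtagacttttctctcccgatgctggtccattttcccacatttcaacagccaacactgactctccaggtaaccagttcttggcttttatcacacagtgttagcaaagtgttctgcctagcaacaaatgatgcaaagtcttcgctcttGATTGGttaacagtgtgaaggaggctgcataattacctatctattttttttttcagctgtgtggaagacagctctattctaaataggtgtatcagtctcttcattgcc
H2-Aa, chr17:34287774-34288073, minus strand: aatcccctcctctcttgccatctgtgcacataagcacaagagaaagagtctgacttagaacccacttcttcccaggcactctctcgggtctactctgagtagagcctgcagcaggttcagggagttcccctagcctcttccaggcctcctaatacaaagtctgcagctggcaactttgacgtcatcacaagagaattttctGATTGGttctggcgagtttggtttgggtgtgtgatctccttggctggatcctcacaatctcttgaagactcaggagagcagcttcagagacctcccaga
The Y box letters began 44 bases before the start site in H2-Oa, 60 in H2-Eb1, 101 in H2-Eb2, 58 in H2-Ob and 49 in H2-Aa, all on the gene's own strand. H2-Eb1 had a further match on the opposite strand at 35 bases. The X box letters stood upstream of the Y box in H2-Eb1, at 92 bases, and in H2-Eb2, at 133 bases. In H2-Oa they matched only on the opposite strand, 3 bases before the start site and thus downstream of the Y box. H2-Oa and H2-Ob both hold agcaacaa upstream of the Y box, which departs from the X box letters in its last base only and is not marked. The 7 matched members have 8 promoters in the table, of which 6 held the Y box letters and 2 the X box letters, against 16.1% and 17.4% of all 32851 promoters of this length. H2-DMa has 2 of these promoters, 1 without a match and 1 with the Y box letters 199 bases before the start site. Both motifs occurred together in 2.68% of all promoters, and a match to these letters is a description of the sequence. A promoter without a match to the X box letters is not shown to lack an X box.

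Whole-series properties were as follows. Median intensities of the arrays were 139 to 145. B cell markers were high in every array, with a summed intensity of 11 of 12 measured markers of 83103 to 86885 in wild-type, 78616 to 84761 in floxed and 76196 to 79662 in delta arrays. Of these markers 1, Cd79a, was lower in delta than in wild-type arrays past the threshold (log2 change -0.48, adjusted p = 0.0427 in limma), as were 0.0451% of all genes. Its log2 levels were 13.29 to 13.39 in wild-type, 13.21 to 13.35 in floxed and 12.82 to 12.89 in delta arrays. All delta arrays lay below all wild-type arrays (5.5% of all genes) and below all floxed arrays (3.61%). From floxed to delta the log2 change of Cd79a was -0.40 (adjusted p = 0.123 in limma). The call against wild-type was lost in settings in which 0 genes passed in that comparison. These were every probe set kept, the groups compared alone, the H2-Ea covariate, and wild-type 1, wild-type 2, floxed 1, floxed 3 or delta 3 left out. Xist and Y-linked genes gave a male pattern in 0 of 3 wild-type, 3 of 3 floxed and 1 of 4 delta arrays (delta 1), so sex and genotype cannot be told apart in floxed against wild-type. A sex covariate is set by the contrast of delta 1 with the other delta arrays alone, and delta 1 also differed from them in H2-Ea. Values with sex as a covariate thus rest on 1 array and do not separate sex from genotype. H2-Ea stood apart in 4 arrays, with values given after the counts, and wild-type 3 stood apart in several class I genes.

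None of the class II members passed the test between any pair of groups. In floxed against wild-type 0 of the 9 members reached an adjusted p of 0.05, where limma called 110 of 19937 genes (0.552%), 0.391% higher and 0.161% lower. At an unadjusted p under 0.05 the count was 3 of 9 (H2-Oa, H2-DMa and H2-Eb1), against 12.8% of all genes. These were also the 3 of the 9 with all floxed above all wild-type arrays, against 7.6% of all genes, and 0 of the 9 lay the other way, against 9.13% (16.7% in either direction). The probe set shared by H2-DMb2 and H2-DMb1, outside the 9, also had all floxed arrays above all wild-type arrays, by a narrow gap. The median log2 change was 0.16 over the 9 members and -0.02 over all genes, and 9 of 9 changes were above 0, against 41.9% of all genes. Without wild-type 1 the count was 1, which is described with H2-Oa, and the count was 0 in each of the other settings tried.

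In delta against wild-type 0 of 9 members passed, where 15 genes did (0.0752%, with 0.0301% higher and 0.0451% lower), and H2-Oa alone had an unadjusted p under 0.05, against 7.89% of all genes. In this comparison 0 of 9 members had groups that did not overlap, against 9.25% of all genes (3.75% higher and 5.5% lower), and 8 of 9 changes were above 0, against 43.6%. The median was 0.10, from -0.03 to 0.28, against -0.01 over all genes. For delta against floxed 0 of 9 passed, where 1 gene did (0.00502%), and 0 of 9 had an unadjusted p under 0.05, against 6.42%. H2-DMa was the 1 member with every delta array below every floxed array, against 3.61% of all genes, with 3.36% the other way and 6.96% in all. Here 2 of 9 changes were above 0, against 52.1% of all genes, and the median was -0.08, against 0.0045. The comparisons with wild-type share the same 3 wild-type arrays, so that an array such as wild-type 1 moves both.

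H2-Ea, the alpha chain of I-E, was either bright or dim with nothing between. Its log2 level was 6.23, 13.51 and 13.91 in wild-type 1, 2 and 3, and 6.09, 6.63 and 13.59 in floxed 1, 2 and 3. In delta 1 to 4 it was 6.40, 13.60, 13.62 and 13.65. The gene was thus dim in 1 of 3 wild-type, 2 of 3 floxed and 1 of 4 delta arrays, and every genotype held arrays of each kind. As background, C57BL/6 mice carry a promoter deletion that silences H2-Ea, the RefSeq table of the C57BL/6J assembly lists it as a transcribed pseudogene, and CBA mice express it. The sources used here do not give the H2 alleles of the mice. The group differences of H2-Ea had wide errors. Its log2 change was -2.45 with an SE of 2.56 for floxed against wild-type, 0.60 with an SE of 2.40 for delta against wild-type and 3.05 with an SE of 2.40 for delta against floxed. The adjusted p was 0.741, 0.983 and 0.865 in limma.

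Of the members, 4 were highest in exactly those arrays of their group in which H2-Ea was dim. H2-Oa, H2-Ob, H2-Ab1 and H2-Eb1 showed this order within wild-type, within floxed and within delta arrays, as did their neighbour H2-Eb2, an I-E beta-like gene. Such an order was present in 4 of the 9 members and in 2.77% of the 19936 genes other than H2-Ea, and the reverse order in 0 of 9 members and 3.19% of genes. It was noticed in these data and was not tested. Whether the sequence of the H2 alleles alters the signal of these probe sets was not tested either. H2-Aa, H2-DMa, Cd74, Ciita and Ctss did not have it. Fits with the H2-Ea level as a covariate, chosen after seeing the data, are therefore given for these genes.

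**Figure D1:**
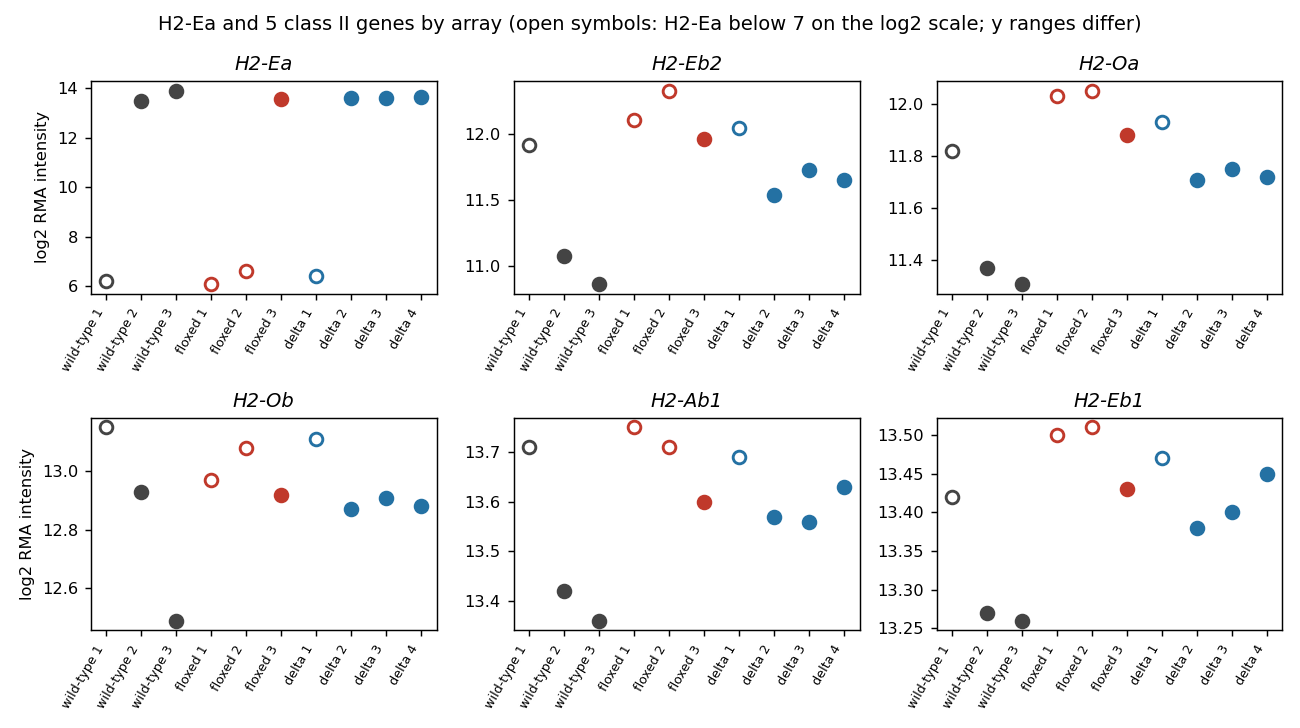
Log2 RMA intensity of H2-Ea and of 5 class II genes in each of the 10 arrays, with wild-type in grey, floxed in red and delta in blue. Open symbols are the 4 arrays with H2-Ea below 7 on the log2 scale, and in each of the other 5 panels they lie above the filled symbols of the same group.

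Group means of the I-A chains and the I-E beta chain differed by at most 0.19 on the log2 scale. H2-Ab1, the I-A beta chain, had log2 levels of 13.71, 13.42 and 13.36 in wild-type, 13.75, 13.71 and 13.60 in floxed, and 13.69, 13.57, 13.56 and 13.63 in delta arrays. Wild-type 2 and 3 were the lowest arrays, and wild-type 1 lay within the floxed range. Mean intensity of H2-Ab1 was 11603 ± 1539 (SD, n = 3) for wild-type, 13209 ± 681 (SD, n = 3) for floxed and 12531 ± 536 (SD, n = 4) for delta. The log2 change from wild-type to floxed was 0.19 (adjusted p = 0.396 in limma), with a 95% confidence interval (CI) of -0.003 to 0.39. From wild-type to delta H2-Ab1 differed by 0.12 (adjusted p = 0.809, CI -0.07 to 0.30), and from floxed to delta by -0.08 (adjusted p = 0.910, CI -0.26 to 0.11). With the H2-Ea level as a covariate its change from wild-type to floxed was 0.13 (SE 0.07). Leaving out 1 array moved it to between 0.13 (without wild-type 3) and 0.30 (without wild-type 1).

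H2-Eb1, the I-E beta chain, had log2 levels of 13.42, 13.27 and 13.26 in wild-type and 13.50, 13.51 and 13.43 in floxed arrays, which did not overlap. Delta arrays overlapped with both groups, at 13.47, 13.38, 13.40 and 13.45. The gap between wild-type 1 and floxed 3 was small. From wild-type to floxed the log2 change of H2-Eb1 was 0.16 (adjusted p = 0.301, CI 0.03 to 0.30), and from wild-type to delta 0.11 (adjusted p = 0.722, CI -0.02 to 0.24). With the H2-Ea covariate the first of these was 0.13 (SE 0.06).

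H2-Aa, the I-A alpha chain, varied by 0.14 on the log2 scale over all 10 arrays, from 13.60 to 13.74. Its levels were 13.74, 13.63 and 13.60 in wild-type, 13.68, 13.64 and 13.72 in floxed and 13.71, 13.66, 13.69 and 13.70 in delta arrays, and the groups overlapped throughout. The log2 change of H2-Aa was 0.02 in floxed against wild-type (CI -0.11 to 0.15) and 0.03 in delta against wild-type (CI -0.09 to 0.15), and the sign of the first of these turned with array weights, with sex as a covariate and without wild-type 3 or floxed 3. The upper ends of these intervals were 0.153 and 0.154. H2-Aa was bright, with a mean intensity of 12937 in wild-type arrays in a table that runs up to 26808. Whether differences are compressed at such levels was not tested.

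**Figure D2:**
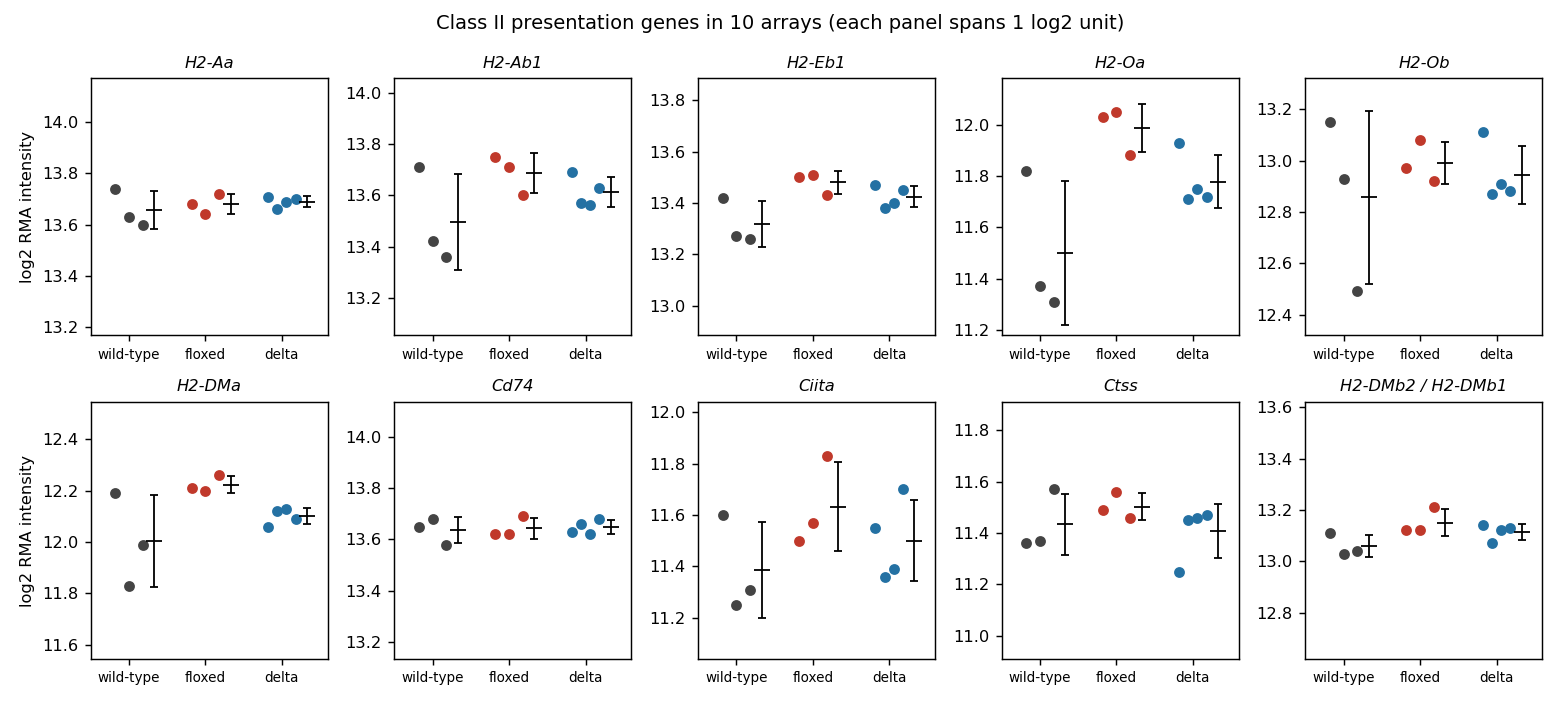
Log2 RMA intensity of the 10 members in wild-type (grey), floxed (red) and delta (blue) arrays, with 1 point per array and a bar for the mean ± SD. Every panel spans 1 log2 unit, so that the flat H2-Aa and Cd74 can be set beside H2-Oa and H2-Ob, which vary by 0.73 and 0.66.

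Cd74, the invariant chain, was the flattest member, and with a mean intensity of 12731 in wild-type arrays it was about as bright as H2-Aa. Its log2 levels were 13.65, 13.68 and 13.58 in wild-type, 13.62, 13.62 and 13.69 in floxed and 13.63, 13.66, 13.62 and 13.68 in delta arrays. All 10 values lay within 0.11, and the 3 groups overlapped. The log2 change of Cd74 was 0.01 in floxed against wild-type (adjusted p = 0.958, CI -0.11 to 0.14) and 0.01 in delta against wild-type (adjusted p = 0.983, CI -0.10 to 0.13), and both signs turned with a repeated quantile normalization and without wild-type 3. The first also turned with array weights and without floxed 3.

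Cathepsin S (Ctss), which trims the invariant chain, had log2 levels of 11.36, 11.37 and 11.57 in wild-type and 11.49, 11.56 and 11.46 in floxed arrays. In delta 1 to 4 Ctss was at 11.25, 11.45, 11.46 and 11.47, so that delta 1 was the lowest of all arrays and the other 3 were nearly equal. From wild-type the log2 change of Ctss was 0.07 to floxed (adjusted p = 0.785, CI -0.11 to 0.25) and -0.03 to delta (adjusted p = 0.966, CI -0.20 to 0.14). From floxed to delta it was -0.10 (adjusted p = 0.865, CI -0.26 to 0.07). Without wild-type 3 the change to delta was 0.04, and without delta 1 it was 0.02.

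H2-DMa, the alpha chain of the peptide exchange factor H2-DM, had log2 levels of 12.19, 11.83 and 11.99 in wild-type, 12.21, 12.20 and 12.26 in floxed and 12.06, 12.12, 12.13 and 12.09 in delta arrays. Floxed arrays lay above all others, and wild-type 1 stood just below floxed 2. From wild-type to floxed the log2 change of H2-DMa was 0.22 (adjusted p = 0.285, CI 0.04 to 0.40), and from floxed to delta -0.12 (adjusted p = 0.847, CI -0.29 to 0.04). The first was 0.13 without wild-type 2 and 0.31 without wild-type 1. The probe set shared by H2-DMb2 and H2-DMb1, the beta chain genes, was at 13.11, 13.03 and 13.04 in wild-type, 13.12, 13.12 and 13.21 in floxed and 13.14, 13.07, 13.12 and 13.13 in delta arrays. Added to the fit, it differed by 0.09 in floxed against wild-type (CI -0.04 to 0.22, adjusted p = 0.554) and by 0.06 in delta against wild-type (adjusted p = 0.878).

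H2-Oa, the alpha chain of the H2-DM inhibitor H2-O, showed the largest difference of the 9 members fitted. Its log2 levels were 11.82, 11.37 and 11.31 in wild-type, 12.03, 12.05 and 11.88 in floxed and 11.93, 11.71, 11.75 and 11.72 in delta arrays. Every floxed array lay above every wild-type array, delta arrays overlapped with each of the other groups, and wild-type 1 stood well above wild-type 2 and 3. Mean intensity of H2-Oa was 2939 ± 597 (SD, n = 3) for wild-type, 4061 ± 253 (SD, n = 3) for floxed and 3517 ± 258 (SD, n = 4) for delta. From wild-type to floxed H2-Oa differed 1.40-fold, a log2 change of 0.48 with an SE of 0.12 (CI 0.22 to 0.75), and the adjusted p was 0.109 in limma. From wild-type to delta the log2 change was 0.28 (adjusted p = 0.578, SE 0.11), and from floxed to delta -0.21 (adjusted p = 0.820, SE 0.11). The change to delta was 0.44 without wild-type 1 and 0.18 without wild-type 3.

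Wild-type 1 decided whether H2-Oa passed the threshold. Without that array the log2 change of H2-Oa from wild-type to floxed was 0.64 (adjusted p = 0.0385, SE 0.09), and the remaining wild-type arrays were then those with bright H2-Ea. Over all arrays left out in turn, the change of H2-Oa lay between 0.39 and 0.64. It was 0.39 with the H2-Ea covariate (adjusted p = 0.0675, SE 0.08) and 0.28 with sex as a covariate (adjusted p = 0.822, SE 0.21). The sex covariate rests on delta 1 alone, in which a male pattern and dim H2-Ea coincide. H2-Ob, the beta chain of H2-O, was at 13.15, 12.93 and 12.49 in wild-type, 12.97, 13.08 and 12.92 in floxed and 13.11, 12.87, 12.91 and 12.88 in delta arrays. Its groups overlapped, wild-type arrays were both the highest and the lowest of all, and the log2 change from wild-type to floxed was 0.13 (CI -0.17 to 0.43, adjusted p = 0.741). Without wild-type 3 that change of H2-Ob was -0.05, without wild-type 1 it was 0.28, and with sex as a covariate -0.09. With the H2-Ea covariate it was 0.04 (adjusted p = 0.908, SE 0.11).

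Ciita, the coactivator of class II genes, varied within each group. Its log2 levels were 11.60, 11.25 and 11.31 in wild-type, 11.50, 11.57 and 11.83 in floxed and 11.55, 11.36, 11.39 and 11.70 in delta arrays. Wild-type 1 lay above 2 of the 3 floxed arrays, and floxed 3 and delta 4 were the highest. From wild-type the log2 change of Ciita was 0.25 to floxed (adjusted p = 0.428, CI -0.02 to 0.51) and 0.11 to delta (adjusted p = 0.887, SE 0.11). From floxed to delta it was -0.13 (adjusted p = 0.876, CI -0.38 to 0.11). The change to floxed was 0.15 without floxed 3 and 0.35 without wild-type 1.

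**Figure D3:**
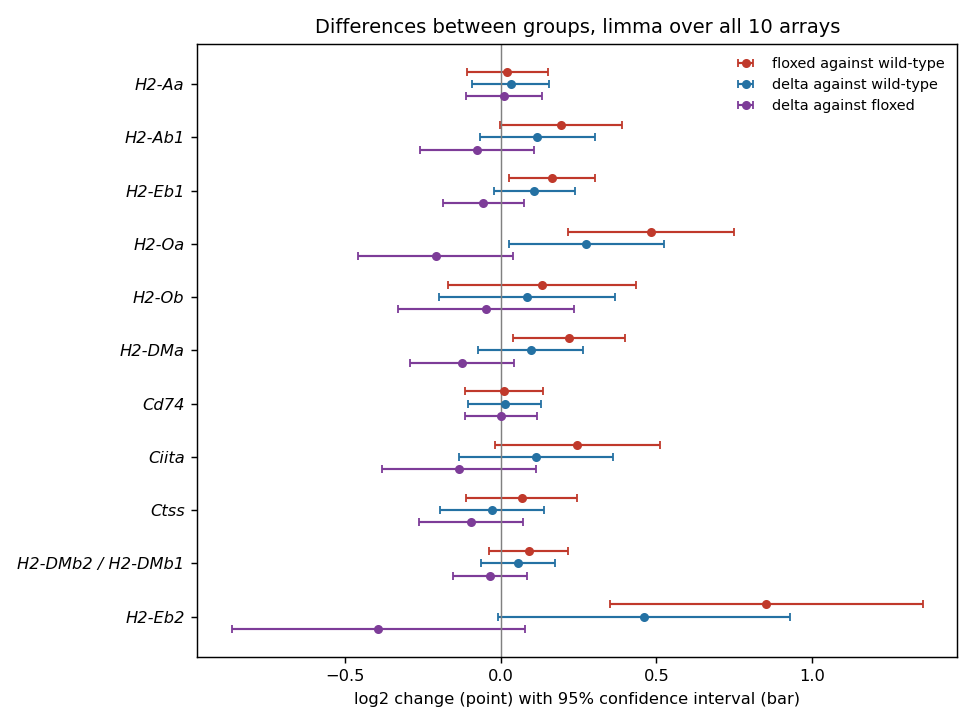
Log2 changes of the members and of H2-Eb2 in the 3 comparisons, with the point at the limma estimate over 10 arrays and the bar its 95% confidence interval. H2-Oa and H2-Eb2 lie farthest from 0 in floxed against wild-type, at 0.48 and 0.85, and the estimates of Cd74 and H2-Aa lie next to 0.

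Over the 10 arrays H2-Oa, H2-Eb1 and H2-Ab1 resembled one another. Likeness was measured as the root mean square difference between profiles scaled to mean 0 and SD 1, which is 0 for identical profiles and had a median of 1.40 between H2-Ab1 and the 9967 genes with a mean level above the median of all genes. The genes most like H2-Ab1 were H2-Eb1 (0.291), H2-Oa (0.299), H2-Eb2 (0.311) and the class I gene H2-Q5 (0.365). Those most like H2-Oa were H2-Eb2 (0.138), H2-Eb1 (0.220), H2-Ab1 (0.299) and the zinc finger gene Zfp593 (0.324). Ciita was most like Dgat1 (0.281), which encodes an enzyme of triglyceride synthesis, followed by Ccdc43 (0.327), Thrap3 (0.344) and the cathepsin gene Ctsh (0.364), and none of the 9 members was among its 4 nearest. H2-Ob and Ctss were the least alike pair of members, at 1.69.

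H2-Eb2 had the widest group difference of the class II chain genes after H2-Ea. Its log2 levels were 11.92, 11.07 and 10.86 in wild-type, 12.11, 12.33 and 11.96 in floxed and 12.05, 11.54, 11.73 and 11.65 in delta arrays. The floxed arrays lay above all wild-type arrays, with wild-type 1 close below floxed 3. From wild-type to floxed H2-Eb2 differed 1.81-fold, a log2 change of 0.85 with an SE of 0.23 (adjusted p = 0.130), and from wild-type to delta by 0.46 (adjusted p = 0.646, SE 0.21). Without wild-type 1 these were 1.17 (adjusted p = 0.0355) and 0.78, and without wild-type 3 they were 0.64 and 0.25. With the H2-Ea covariate the first was 0.67 (adjusted p = 0.0809, SE 0.14).

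In RefSeq order the class II region runs from H2-Oa through Brd2, H2-DMa, H2-DMb2, H2-DMb1, Psmb9, Tap1, Psmb8, Tap2, H2-Ob, Gm20506, H2-Ab1 and H2-Aa to H2-Eb1. With 10 genes added on each side the stretch held 34 genes, 7 of them members, and 17 measured neighbours. Of these 17 neighbours 0 passed the threshold in any comparison, while 5 had all floxed above all wild-type arrays (7.6% of all genes) and 1, Col11a2, all floxed below (9.13%). The median log2 change of the 17 was 0.06 between wild-type and floxed. Psmb9 and Psmb8, subunits of the immunoproteasome that cuts peptides for class I, stood at log2 changes of 0.52 (adjusted p = 0.0872, SE 0.12) and 0.36 (adjusted p = 0.173, SE 0.11). Brd2, between H2-Oa and H2-DMa, was at 0.03.

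**Figure D4:**
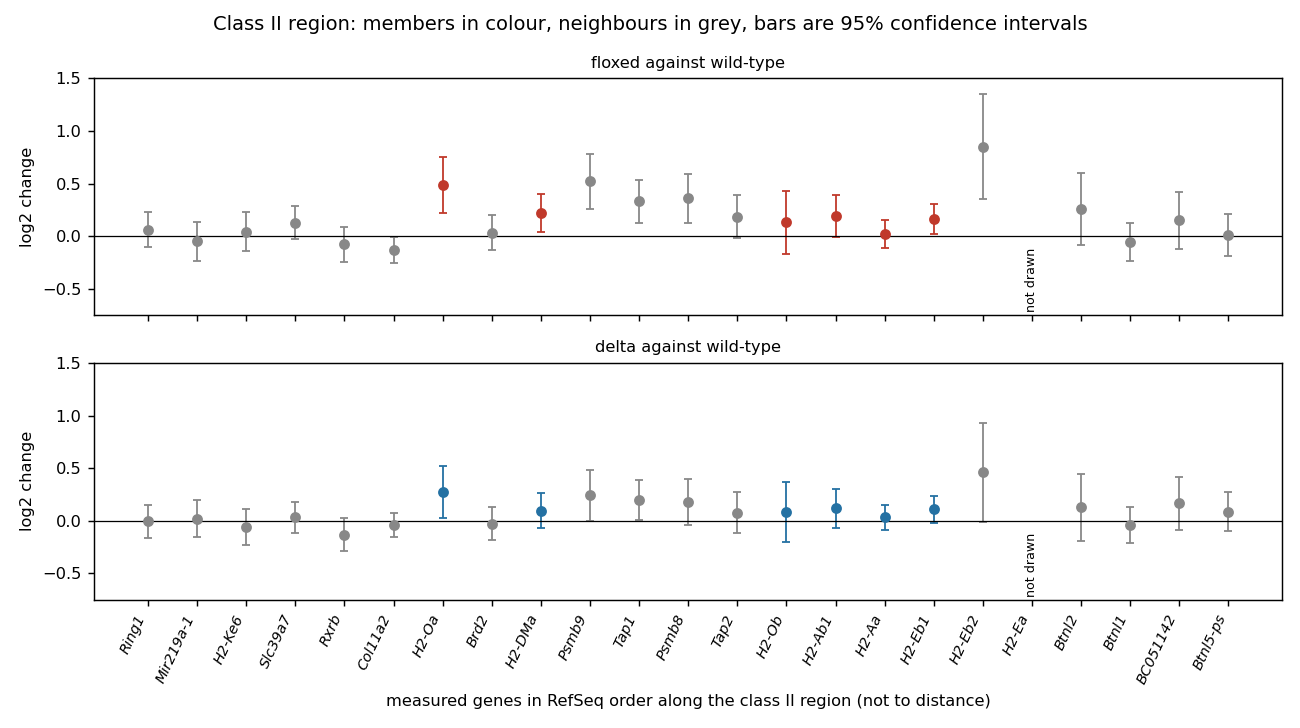
Log2 change (point) and 95% confidence interval (bar) of measured genes in RefSeq order along the class II region, in floxed against wild-type (top, members in red) and delta against wild-type (bottom, members in blue), with neighbours in grey. H2-Ea, with standard errors of 2.56 and 2.40, is not drawn, and the genes on the left from Ring1 to Col11a2 lie near 0.

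Transcription factors of class II genes did not pass the threshold in any comparison, with 0 of 14 called. Their median log2 change between wild-type and floxed was -0.06, and 4 of 14 were above 0. Irf8, an interferon regulatory factor active in B cells, was the largest, at 11.73, 11.76 and 11.64 in wild-type, 12.04, 12.09 and 11.96 in floxed and 11.92, 11.76, 11.86 and 11.93 in delta arrays. Floxed arrays lay above all others, and the log2 change of Irf8 from wild-type to floxed was 0.32 (adjusted p = 0.0684, SE 0.07). It passed in 4 of the other settings, for example 0.34 with array weights (adjusted p = 0.0427 in limma). It did not pass with the H2-Ea covariate, at 0.30 (adjusted p = 0.105), or with sex as a covariate, at 0.25 (adjusted p = 0.722). Nfyb, a subunit of the factor that binds the Y box, was at -0.15 (adjusted p = 0.541, SE 0.10), and at -0.08 without wild-type 2.

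Of 3 listed repressors of Ciita none passed. Prdm1, the plasma cell factor Blimp-1, was at 0.22 in floxed against wild-type (adjusted p = 0.491, SE 0.12) and -0.04 in delta against wild-type. Bcl6, the gene that the transgene carries, was at -0.17 (SE 0.15, adjusted p = 0.688) and -0.35 (SE 0.14, adjusted p = 0.578). These were 0.04 and -0.13 without wild-type 1 and -0.30 and -0.47 without wild-type 3. Its log2 levels were 10.48, 9.87 and 9.80 in wild-type, 9.80 to 9.96 in floxed and 9.56 to 9.83 in delta arrays, with wild-type 1 the highest. Whether its probe set reads the transcript of the transgene was not tested.

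Endosomal processing genes gave 0 of 12 past the threshold and a median of 0.10 in floxed against wild-type, 4 of them with all floxed above all wild-type arrays, against 7.6% of all genes. Ctsb, a lysosomal cysteine protease, was at log2 levels of 9.91 to 10.19 in wild-type, 10.32 to 10.53 in floxed and 10.04 to 10.42 in delta arrays, a log2 change from wild-type to floxed of 0.39 (SE 0.10, adjusted p = 0.132). Ctsl, a related protease, was at 0.30 (SE 0.16, adjusted p = 0.474), and at 0.17 without wild-type 1 and 0.47 without wild-type 3. Among 9 measured genes of class II surface traffic and turnover 0 passed, with a median of 0.09. The tetraspanin gene Cd82 was at 0.34 (SE 0.11, adjusted p = 0.216), at 0.48 without wild-type 3 (adjusted p = 0.0351) and at 0.22 without wild-type 2. Of the 9 genes 3 had changes below 0, among them Marchf1 at -0.23 (adjusted p = 0.160 in limma). Marchf1 was at log2 levels of 11.27 to 11.43 in wild-type, 11.04 to 11.16 in floxed and 11.20 to 11.32 in delta arrays. The tetraspanin gene Cd63 was at log2 levels of 4.17 to 5.39, within the range of the Y-linked Eif2s3y, Uty and Kdm5d in arrays of female pattern (3.71 to 5.62). Cd63 is not shown to be above background, and its differences, listed only with the other settings further on, are not read as a result.

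Costimulatory genes, which act beside class II in T cell help, gave 0 of 7 past the threshold and a median of 0.36. Cd80, a ligand of CD28, was at 7.04, 7.16 and 7.43 in wild-type, 8.62, 9.21 and 9.03 in floxed and 8.05, 7.78, 8.64 and 9.84 in delta arrays. All floxed and all delta arrays lay above all wild-type arrays, and delta arrays spread widely. The log2 change of Cd80 was 1.74 from wild-type to floxed (adjusted p = 0.0909, SE 0.41) and 1.36 from wild-type to delta (adjusted p = 0.329, SE 0.38). The first passed with only the 2 groups in the fit (adjusted p = 0.00125 in limma) and without delta 4 (adjusted p = 0.00315), and both settings lack the high delta 4. It did not pass with the H2-Ea covariate, at 1.87 (adjusted p = 0.0914), or with sex as a covariate, at 2.44 (adjusted p = 0.488). Cd80 has 2 probe sets, of which the brighter was used. Pdcd1lg2, the PD-1 ligand PD-L2, was at 0.44 (SE 0.15, adjusted p = 0.253).

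Class I presentation genes gave 0 of 13 past the threshold. From wild-type to floxed their median log2 change was 0.20, with 12 of 13 above 0 (41.9% of all genes) and 8 of 13 with all floxed above all wild-type arrays (7.6% of all genes). H2-M3, a class I molecule for formylated peptides, was at 0.37 (SE 0.09, adjusted p = 0.105) in floxed and 0.29 (SE 0.08, adjusted p = 0.356) in delta against wild-type.

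Markers of other cells that can bear class II were also measured. The summed intensity of 10 of 12 measured macrophage and monocyte markers was 1496 to 1659 in wild-type, 2071 to 2354 in floxed and 1756 to 2906 in delta arrays. That of 12 of 12 dendritic cell markers was 4734 to 5684, 5056 to 6635 and 4945 to 6481. Macrophage sums of all floxed and delta arrays thus lay above wild-type, while dendritic sums overlapped. No gene of either list passed the threshold, and from wild-type to floxed 5 of 12 dendritic and 5 of 10 macrophage markers had changes above 0. Flt3, a growth factor receptor of dendritic cell precursors, was at 6.65 to 6.91 in wild-type, 7.37 to 8.37 in floxed and 7.11 to 7.42 in delta arrays (adjusted p = 0.0558 for floxed against wild-type). Itgax, which encodes CD11c, was at log2 levels of 6.44 to 6.84 in wild-type, 8.19 to 9.22 in floxed and 7.06 to 9.39 in delta arrays. Adgre1, which encodes the macrophage antigen F4/80, was at 7.09 to 7.81, 9.11 to 9.83 and 8.06 to 10.15. Its mean intensity was 181 in wild-type, 683 in floxed and 537 in delta arrays, so that this 1 gene makes up much of the difference in macrophage sums. The median log2 change of the 10 macrophage markers was 0.016 in floxed and -0.002 in delta against wild-type. Zbtb46, a defining factor of conventional dendritic cells, was at 7.02 to 7.28 and Csf1r, the macrophage growth factor receptor, at 6.42 to 6.99 in all arrays. No probe set is listed at 0, since the lowest intensity in the table is 4.46. Sums of 10 of 12 T cell markers were 976 to 1185, 1138 to 1920 and 1002 to 1466, and those of 10 of 10 NK cell markers 675 to 786, 1115 to 1419 and 708 to 1150. Sums of 7 of 11 erythroid markers were 1625 to 2611, 2653 to 3550 and 1260 to 2531. The part of such cells in the class II values was not tested, and in sorted bulk samples fewer cells of a type and less RNA per cell cannot be told apart.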

How the data were processed

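The authors deposited one RMA intensity for each probe set and array, on a linear scale, from 4.46 to 26808, and log2 of each was taken here. RMA is named in the submitters' processing notes. The sources used here give no version, software or genome build for it. Of 34760 probe sets, 21640 carried 1 gene symbol, 1321 several and 11799 none in the platform annotation. Probe sets with 1 symbol were kept, the brightest per gene where several existed (954 genes), which left 19937 genes.

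Groups were compared with limma 3.58.1 in R 4.3.3 (lmFit with a mean per group over all 10 arrays, eBayes, two-sided, Benjamini-Hochberg over 19937 genes, threshold 0.05). The total degrees of freedom were 11.3. The script was tested on simulated data. No counting error applies to arrays, and their number limits the precision.

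The members, lists, sex covariate and rules for naming genes were chosen with earlier results of these data known. The text names all members, and up to 2 genes of each other list by absolute change; the rule allowed up to 4, and 2 was set after values were seen. It also names the 4 most changed neighbours and the 4 genes most like H2-Ab1, H2-Oa and Ciita. Cd79a, Brd2, Col11a2, Marchf1, Flt3, Itgax, Adgre1, Zbtb46 and Csf1r were chosen after their values were seen.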

Additional observations from a re-analysis of the deposited data

Results flagged for a closer look

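Of 25 named genes examined in the group of 4 delta arrays, 3 had 1 array far from the others, and chance gives such a distance in about 1 of 20 groups. In each of them that array was delta 1, the delta array with dim H2-Ea and a male pattern of Xist and Y-linked genes. H2-Ea in delta 1 was at 6.40 on the log2 scale, against 13.60 to 13.65 in delta 2 to 4. H2-Ob in delta 1 was at 13.11, against 12.87 to 12.91. Ctss in delta 1 was at 11.25, against 11.45 to 11.47. For H2-Ob the distance was only just past the critical value.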

How the results depend on the processing

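The count of members past the threshold was 0 in every comparison under each setting, except 1 without wild-type replicate 1 in floxed against wild-type, so that its range with 1 array left out was 0 to 1. The count over all genes in floxed against wild-type (110) was 166 without dim genes, 208 with array weights, 193 with the groups compared alone, 2 with sex as a covariate and 69 with the H2-Ea covariate. With 1 array left out it ran from 18 (without wild-type 2) to 240 (without delta 4). For delta against wild-type (15) it was 0 with every probe set kept, 9 with trend and robust options, 0 with the groups alone, 3 with sex, 0 with the H2-Ea covariate and 0 to 23 with 1 array left out. For delta against floxed (1) it was 3 with trend and robust options, 2 with the groups alone and 1 to 10 with 1 array left out.

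With the replicate number as a block, which the labels tie to no litter or day, these counts were 188, 6 and 2, and the members' counts were 0. The deviations of same-numbered arrays of different groups correlated at -0.08 to 0.12 over 9 pairs, 1 of them over 0.1, and 3 of 9 arrays correlated best with an array of their own number. The number 4 occurs only in delta, so the block takes delta 4 out of the group differences. H2-Ea turned to -0.013 and Ctsl to -0.0027 in delta against wild-type and Cd74 to -0.010 in delta against floxed, the same values as without delta 4. Cd80 in floxed against wild-type passed with the block at 1.74 (adjusted p = 0.00267 in limma), which is not separate from its pass without delta 4.

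Some values turned in sign under other settings, and the cause was not tested. The sex covariate rests on delta 1 alone, and in delta against wild-type it gave the same values as leaving out delta 1. Another quantile normalization gave Cd74 -0.022 and -0.016 in floxed and delta against wild-type, and H2-Ob 0.036 in delta against floxed. Centring gave H2-Aa -0.00061, Cd74 -0.0093 and Nfyb -0.0077 in delta against floxed. Array weights gave H2-Aa -0.016 and Cd74 -0.0041 in floxed against wild-type. Sex as a covariate gave H2-Aa -0.0078, H2-Ob -0.091, H2-Ea 4.77 (from -2.45) and the dim Cd63 -0.63 (from 0.24) in floxed and Ctss 0.024 in delta against wild-type. For delta against floxed it gave H2-Ab1 0.0033, H2-Ob 0.12, Cd74 -0.015, H2-Ea -2.37 (from 3.05) and Nfyb -0.011. The H2-Ea covariate gave H2-Ab1 0.00048, H2-Ob 0.062, Cd74 -0.0082 and Nfyb -0.018 there.

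Values that turned with 1 array left out ranged, in floxed against wild-type, from -0.30 to 0.044 for Bcl6, -0.0061 to 0.063 for H2-Aa, -0.051 to 0.28 for H2-Ob and -0.015 to 0.032 for Cd74. The ranges were, in delta against wild-type, from -1.89 to 2.40 for H2-Ea, -0.048 to 0.25 for Ctsl, -0.098 to 0.23 for H2-Ob, -0.014 to 0.033 for Cd74, -0.065 to 0.041 for Ctss and -0.13 to 0.048 for Prdm1. For delta against floxed they ran from -0.010 to 0.025 for Cd74, -0.067 to 0.055 for Nfyb, -0.010 to 0.032 for H2-Aa and -0.12 to 0.24 for Cd63.

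Precision is limited by 3 or 4 arrays a group.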

Other observations

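Class I genes set wild-type 3 apart from the other 9 arrays, in probe sets chosen after their values were seen. H2-K2 was at a log2 level of 8.49 in wild-type 3 and 9.33 to 9.97 in the others. A probe set shared by H2-Q6 and H2-Q8 was at 8.90 against 11.60 to 12.60, and one shared by H2-T9, H2-T22 and H2-T10 at 8.55 against 9.41 to 10.33. Of the probe sets shared by H2-K1, H2-D1 and LOC547349, one was at 10.56 against 12.38 to 12.93 and the other at 12.03 against 12.17 to 12.55. Wild-type 3 also had the lowest level of H2-Ob, H2-Ab1, H2-Eb1, H2-Oa, H2-Eb2, H2-Aa and Cd74 and the highest of H2-Ea and Ctss. H2-DMa and Ciita were lowest in wild-type 2. How many of all genes were lowest in wild-type 3 was not counted.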
